A study of Mus musculus with 6 samples.

Results

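Heparan sulfate is a long sulfated sugar chain carried by proteoglycans at the surface of neurons and in the matrix around them. The heparan sulfate genes examined here are the 33 genes of the deposited table, of 23621 in all, whose symbols name the chain polymerases, the enzymes that sulfate or trim the chain, and the glypican and syndecan core proteins. They comprise 7 3-O-sulfotransferases, 5 chain polymerases, 4 N-deacetylase/N-sulfotransferases, 5 enzymes of the epimerization, 2-O- and 6-O-sulfation steps, 2 endosulfatases, 6 glypicans and 4 syndecans. All 33 passed the filter on low counts. The rule picks genes by symbol, and it was set with earlier results of these data known.

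The RNA came from the cerebral cortex of mice at postnatal day 0, with 3 wild-type littermates and 3 Tle4-/- null mutants, all on a mixed background of C57BL/6J, 129S6 and CD1. Tle4 is a transcriptional co-repressor of the Groucho family, present in deep-layer cortical neurons, and the null mutation is not limited to a cell type by the labels. Which litter a library came from is not given, so p-values measure the spread between these samples only. The libraries held 18617408 to 21632607 counts.

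The polymerases Ext1 and Ext2 build the backbone, and the N-deacetylase/N-sulfotransferases (Ndst) start its modification. The epimerase and the 2-O- and 6-O-sulfotransferases then add the bulk of the remaining pattern, and the 3-O-sulfotransferases (Hs3st) add a rare last sulfate to selected sites. The finished pattern sets which growth factors, guidance cues and adhesion receptors the chain can bind, and in the developing brain such chains take part in axon guidance and synapse formation. Glypicans are held in the membrane by a lipid anchor, syndecans span it, and the extracellular Sulf enzymes remove 6-O-sulfates from finished chains.

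The coding sequences of the Hs3st genes are shown because reads are assigned to members of this family by the bases in which they differ. In GENCODE M21 transcripts, the Hs3st4 coding sequence of 1350 bases was most like that of Hs3st2, with 786 of 1101 aligned bases identical (71.4%). Identity to Hs3st4 was 71.0% for Hs3st6, 69.4% for Hs3st3a1, 67.8% for Hs3st3b1, 60.7% for Hs3st1 and 58.3% for Hs3st5. The longest run of bases that Hs3st4 shared exactly with any of them was 22, with Hs3st2, and no 50-base stretch was common. Hs3st3a1 and Hs3st3b1 were 87.0% identical and shared an exact run of 401 bases. Of the 50-base stretches of the Hs3st3a1 coding sequence, 36.7% also occur in that of Hs3st3b1, so counts of these genes are uncertain. Only coding bases were compared, 1182 of a transcript of 3939 bases for Hs3st3a1 and 1173 of 4911 for Hs3st3b1. The 90 bases in which Hs3st4 and Hs3st2 were most alike, at coding positions 826 to 915 of Hs3st4, read as follows, with capitals for bases that differ from Hs3st4. Hs3st2 differed at 16 of the 90 bases, Hs3st3a1 and Hs3st3b1 at the same 18, and Hs3st6 at 24.
Hs3st4: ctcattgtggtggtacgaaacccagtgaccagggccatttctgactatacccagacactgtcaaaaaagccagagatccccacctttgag
Hs3st2: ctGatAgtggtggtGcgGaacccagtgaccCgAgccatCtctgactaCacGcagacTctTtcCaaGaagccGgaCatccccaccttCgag
Hs3st3a1: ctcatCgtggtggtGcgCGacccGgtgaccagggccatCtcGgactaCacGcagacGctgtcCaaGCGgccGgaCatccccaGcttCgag
Hs3st3b1: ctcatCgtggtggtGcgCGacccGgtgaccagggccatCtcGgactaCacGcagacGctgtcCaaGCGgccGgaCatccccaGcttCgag
Hs3st6: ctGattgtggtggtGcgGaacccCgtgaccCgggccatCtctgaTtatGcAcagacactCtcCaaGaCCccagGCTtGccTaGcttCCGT

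Hs3st4 (ENSMUSG00000078591), a 3-O-sulfotransferase used as a marker of deep-layer corticothalamic neurons, lies on the plus strand of chromosome 7 from 123982869 to 124398989 (GRCm38). It stood at 41.8, 31.8 and 34.7 FPKM in the wild-type libraries and at 20, 19.6 and 18 FPKM in the mutants. FPKM, fragments scaled by gene length and by library, is the deposited value and is the scale on which levels of different genes are compared here. The lowest wild-type library was above the highest mutant library, and the mutants lay close together, at 19.2 ± 1.09 FPKM against 36.1 ± 5.14 FPKM in the wild type (SD, n = 3 each). From the deposited counts, which were 2671, 2196 and 2063 in wild type against 1373, 1198 and 1110 in mutant mice, the log2 fold change of the mutant over the wild type was -0.90 (SE 0.13). This put the mutant at 0.535 of the wild type, with an adjusted p of 0.0522 by edgeR's quasi-likelihood test. The gene therefore missed the threshold of 0.05 narrowly and ranked 19th of 16274 genes by p, just after the 18 that passed.

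The call of Hs3st4 turned on the test and on single libraries, while its direction did not. By the DESeq2 Wald test on the same counts the adjusted p was 1e-06, and in the authors' deposited table the p is 1.01e-07 and the adjusted p 8.88e-05. With edgeR it was 0.0493 with DESeq2 size factors, 0.0151 with no filter beyond 1 count and 0.0390 without wild-type replicate 2. It missed the threshold at 0.0564 with a mean of at least 1 CPM (counts scaled to library size) and at 0.0677 without X, Y and mitochondrial genes, and limma-voom gave an adjusted p of 0.0693. Without any other single library it ranged from 0.0812 to 0.261, and the log2 fold change over all 6 such fits ranged from -1.0 to -0.77. An antisense gene that overlaps an exon of Hs3st4, Gm27040, had 8 to 14 counts in every library.

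**Figure D1:**
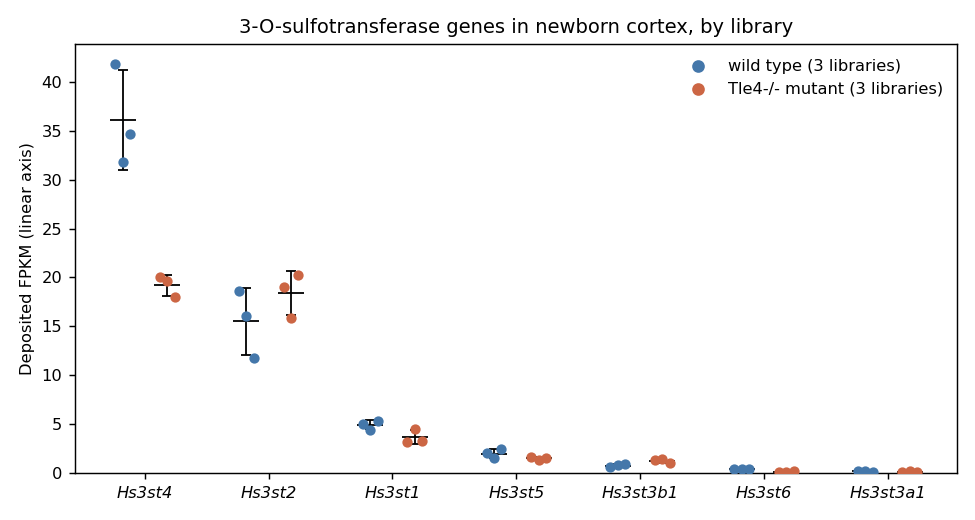
Deposited FPKM (linear axis) of the 7 Hs3st genes in each library, with points for libraries and black bars for the mean and SD of 3 libraries. Only for Hs3st4 among the 4 most abundant genes are the genotypes apart, at 31.8 to 41.8 FPKM in the wild type and 18 to 20 FPKM in the mutant.

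Hs3st2, the other 3-O-sulfotransferase of high level in this cortex, is also on chromosome 7, from 121391859 to 121501770, with 2.48 Mb between them. It stood at 18.6, 16.1 and 11.8 FPKM in wild type, against 19, 15.9 and 20.2 FPKM in mutant mice. The genotypes overlapped, and wild-type replicate 3 was the lowest library (log2 fold change 0.25, SE 0.17, edgeR adjusted p = 1). Leaving out that library brought Hs3st2 to a log2 fold change of 0.09, and leaving out wild-type replicate 1 to 0.42. Hs3st4 was above Hs3st2 by 2.24, 1.97 and 2.94 times in the wild-type libraries, and by 1.05, 1.24 and 0.889 times in the mutants. In mutant replicate 3 the order of the pair was thus reversed, and in mutant replicate 1 the values were nearly equal.

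The other 5 Hs3st genes were expressed at lower levels. Hs3st1, the enzyme that makes the antithrombin-binding site of heparin, stood at 5.02, 4.40 and 5.31 FPKM in wild type, against 3.21, 4.52 and 3.27 FPKM in mutant mice. Mutant replicate 2 lay within the wild-type range, and the log2 fold change was -0.41 (SE 0.17, edgeR adjusted p = 1). Leaving out 1 library moved it between -0.59 and -0.32. Hs3st5, a broad-specificity member, stood at 2.02, 1.48 and 2.40 FPKM in wild type, against 1.65, 1.36 and 1.52 FPKM in mutant mice. Its genotypes overlapped as well (log2 fold change -0.37, SE 0.20, edgeR adjusted p = 1), and its log2 fold change ranged from -0.55 without wild-type replicate 2 to -0.20 without wild-type replicate 3.

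Hs3st3b1 was the only Hs3st gene whose mutant libraries all lay above the wild types. It stood at 0.590, 0.772 and 0.886 FPKM in wild type, against 1.28, 1.39 and 1.04 FPKM in mutant mice, from 58 to 82 and from 99 to 135 counts. The log2 fold change was 0.74 (SE 0.24, edgeR adjusted p = 1). Its near-copy Hs3st3a1, which lies 0.51 Mb away on chromosome 11, held 15, 15 and 5 counts against 9, 11 and 5 (log2 fold change -0.45, SE 0.51, and -0.77 to -0.19 with 1 library left out). Hs3st6 had 11, 11 and 10 counts in wild type against 3, 1 and 5 in mutant mice. These groups did not overlap, but the level was 0.436 FPKM or less in the mean of each genotype, and the log2 fold change of -1.77 (SE 0.56) had an edgeR adjusted p of 1. By the DESeq2 Wald test Hs3st6 did not reach an unadjusted p under 0.05.

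Of the 33 genes, 0 passed the edgeR threshold, where 0.111% of all genes passed it (0.0614% lower and 0.0492% higher in the mutant). The DESeq2 Wald test called 1 of the 33, Hs3st4, and 58 of all genes. At an unadjusted edgeR p under 0.05 there were 4 of the 33, against 3.45% of all genes. Lower in the mutant were 3, Hs3st4, Hs3st6 and Hs3st1, against 1.73% of all genes, and higher was 1, Hs3st3b1, against 1.71%. Genotypes did not overlap in CPM, counts scaled to library size with TMM factors, for 3 of the 33, against 7.93% of all genes. Lower in the mutant were 2, Hs3st4 and Hs3st6, against 3.75% of all genes, and higher was 1, Hs3st3b1, against 4.18%. All 4 were 3-O-sulfotransferases, but Hs3st1 no longer had an unadjusted p under 0.05 without wild-type replicate 1 or 3 or mutant replicate 1 or 3. This class of 7 had 5 log2 fold changes below 0 and a median of -0.41. Over all 33 genes 19 lay below 0, against 51.3% of all genes tested, and the median was -0.03, beside -0.01 over all genes tested.

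Summed over the 7 genes, Hs3st RNA stood at 68.7, 55.2 and 55.7 FPKM in wild type, against 45.4, 42.9 and 44.3 FPKM in mutant mice. The mutant mean was 0.738 of the wild type, and the highest mutant library lay below the lowest wild type. The 6 genes other than Hs3st4 summed to 26.9, 23.4 and 20.9 FPKM in wild type, against 25.4, 23.3 and 26.3 FPKM in mutant mice, ranges that overlapped. Hs3st4 made up 60.8%, 57.6% and 62.4% of the sum in wild type against 44.1%, 45.7% and 40.6% in the mutants, a mean difference of -16.8 percentage points. Hs3st2 made up 27.1%, 29.2% and 21.2% and then 41.9%, 36.9% and 45.6%. The shares of Hs3st1 (8.27% and 8.32% in the mean) and Hs3st5 (3.31% and 3.41%) were close in both genotypes. These sums and shares are descriptions with no test, and shares are bound to each other, so a lower share of 1 gene raises the others.

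**Figure D2:**
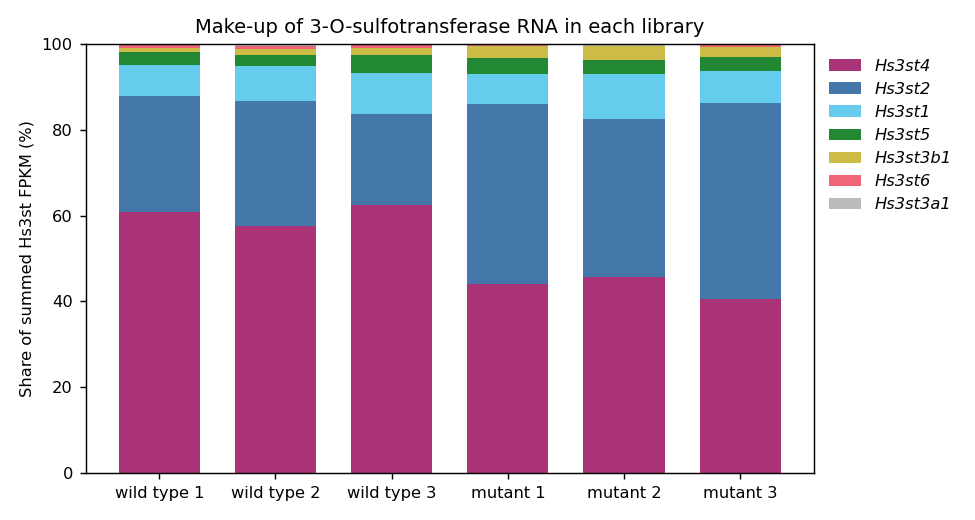
Stacked bars give the share of summed Hs3st FPKM (%) held by each of the 7 genes in each of the 6 libraries. Hs3st4 holds 57.6% to 62.4% in wild type against 40.6% to 45.7% in the mutants, while Hs3st2 goes from 21.2% to 29.2% up to 36.9% to 45.6%.

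The promoter of Hs3st4 is shown because Hs3st4 had the smallest p of all 33 genes. The 250 bases before its RefSeq start, on the plus strand at chr7:123982578-123982827 (GRCm38.p6), are printed with each CpG dinucleotide in capitals.
Hs3st4 upstream: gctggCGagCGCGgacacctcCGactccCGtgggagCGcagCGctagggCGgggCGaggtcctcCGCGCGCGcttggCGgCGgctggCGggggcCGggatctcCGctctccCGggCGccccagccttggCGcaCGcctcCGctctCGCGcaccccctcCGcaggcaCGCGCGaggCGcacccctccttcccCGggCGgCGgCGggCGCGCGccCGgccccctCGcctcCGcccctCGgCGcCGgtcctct
This window held 43 CpG dinucleotides and was 82.0% G or C, the highest of 28 windows of 24 of these genes, whose median was 18.5 CpG. The median of all 32851 RefSeq windows was 6 CpG and 52.4% G or C. Short motifs were searched on both strands, and no motif is contained in another. TATAAA, the TATA box, was found in 12.37% of all windows and in those of Gpc5, Hs6st2 and Sulf2, but not in that of Hs3st4. AGGTGTGA, a T-box site, occurred in 1.12% and CTTTGAT, a TCF/LEF site, in 3.21% of all windows, and neither occurred in any of the 28 windows.

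Hs3st4 was read beside other corticothalamic markers and beside markers of cells that a cortical dissection can include. Tle4 itself had 3884, 3171 and 3091 counts in wild type against 1481, 1659 and 1664 in mutant mice, at 0.48 of the wild type (log2 fold change -1.06, edgeR adjusted p = 0.0377). The labels do not say which exons the null allele disrupts, so the remaining counts cannot be assigned to intact transcripts. Of the 8 corticothalamic markers, 6 had log2 fold changes below 0, and 4 had an unadjusted p under 0.05, against 3.45% of all genes: Nxph3, Zfpm2, Foxp2 and Syt6. By edgeR 0 of the 8 passed the threshold. Their sum was 788, 626 and 727 CPM in wild type against 583, 626 and 613 CPM in mutant mice, with wild-type replicate 2 and mutant replicate 2 at the same level. Tbr1 was the largest part of this sum in every library, at 325 CPM in wild-type replicate 2 and 377 CPM in mutant replicate 2. Nxph3, a secreted neurexin ligand, stood at 70.4, 43.1 and 46.3 CPM in wild type against 13.3, 20 and 20.4 CPM in mutant mice, and Foxp2, a transcription factor, at 61.3, 61.6 and 83.1 CPM against 42, 41.7 and 39 CPM. Zfpm2, a transcriptional cofactor, stood at 36.3, 29.6 and 30.3 CPM in wild type, against 17.8, 16.7 and 19.8 CPM in mutant mice. Tbr1, a transcription factor of the same neurons and of others in the cortex, stood at 411, 325 and 392 CPM against 328, 377 and 366 CPM (log2 fold change -0.08). Above 0 were Ntsr1, a neurotensin receptor, at 110, 86.5 and 86.1 CPM against 115, 92.7 and 97.8 CPM (log2 fold change 0.11), and Crym, a thyroid hormone-binding protein (log2 fold change 0.55, SE 0.39). In bulk tissue fewer cells of a type and less RNA per cell cannot be told apart.

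The 10 striatal markers summed to 138, 122 and 188 CPM in wild type, against 92.9, 83.0 and 78.5 CPM in mutant mice, with 9 of 10 below 0 and none at 0 in any library. Subplate markers summed to 153 to 165 CPM in wild type and 108 to 157 CPM in the mutant. The largest part of this sum was Nr4a2, at 92.8, 110 and 96.5 CPM in wild type against 82.5, 87.3 and 133 CPM in mutant mice. Its log2 fold change was 0.01, while 4 of the 5 subplate markers lay below 0. Ctgf was the 1 of 5 that passed (log2 fold change -1.68, edgeR adjusted p = 0.0145). Of the 10 cortical interneuron markers 9 lay below 0 and 0 passed, with sums of 577 to 623 CPM in wild type against 498 to 576 CPM in the mutants. Of all genes tested, 51.3% had log2 fold changes below 0. An unadjusted edgeR p under 0.05 was reached by 4 of the 10 interneuron markers and by 3 of the 5 subplate markers, against 3.45% of all genes. All of these were lower in the mutant. The part of these cells in the Hs3st4 values was not tested.

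Of the 5 polymerase genes 0 had genotypes apart in CPM. Extl3, the most abundant polymerase-family gene and one that helps start the chain, stood at 21.0, 24.4 and 24.2 FPKM in wild type, against 23.3, 23.1 and 22.9 FPKM in mutant mice. Ext1 stood at 9.31 ± 0.735 and 9.07 ± 1.94 FPKM, and Ext2, its partner in the polymerase complex, at 5.79 ± 0.264 and 5.66 ± 0.558 FPKM (SD, n = 3 each). The 5 genes had log2 fold changes from -0.02 to 0.13, and 0 had an unadjusted p under 0.05. Their summed level was 43.3 ± 2.94 FPKM in the wild type and 43.1 ± 2.42 FPKM in the mutant (SD, n = 3 each).

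Ndst1, the main N-deacetylase/N-sulfotransferase, stood at 33.9, 35.8 and 38.5 FPKM in wild type, against 33.2, 34.9 and 35.4 FPKM in mutant mice, which overlap (log2 fold change -0.05, SE 0.09). Ndst2 followed at 7.91 and 7.24 FPKM and Ndst3 at 1.03 and 0.950 FPKM in the means of wild type and mutant. Ndst4 was near the bottom of the range, at 14 to 82 counts, and its libraries differed more within a genotype than between genotypes. It had 60, 82 and 14 counts in wild type against 28, 69 and 81 in mutant mice. The 4 genes had log2 fold changes from -0.12 to 0.28, and 0 had an unadjusted p under 0.05.

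Hs6st1, the most abundant of the next group, adds 6-O-sulfates and stood at 25.2, 18.9 and 19.4 FPKM in wild type, against 22, 23.5 and 25.2 FPKM in mutant mice (log2 fold change 0.16, SE 0.14). Leaving out wild-type replicate 1 brought it to 0.33, and leaving out wild-type replicate 2 to 0.07. Its X-linked relative Hs6st2 had a similar level, at 19.5 ± 2.70 and 18.4 ± 2.52 FPKM, and Hs6st3 a lower one, at 6.50 ± 0.735 and 6.18 ± 0.758 FPKM (SD, n = 3 each). Hs2st1, the 2-O-sulfotransferase, stood at 11.5, 11.5 and 12.1 FPKM in wild type against 10.7, 11.4 and 11.3 FPKM in mutant mice. Its genotypes were apart in FPKM but overlapped in CPM, and the log2 fold change was -0.06 (SE 0.09). Glce, the epimerase that converts glucuronic to iduronic acid, had a log2 fold change of -0.18 (SE 0.14). The sum of these 5 genes was 63.3 ± 4.43 FPKM in the wild type and 63.2 ± 0.583 FPKM in the mutant (SD, n = 3 each).

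Of the endosulfatases, Sulf2 dominated, at 25.6, 17.7 and 27.0 FPKM in wild type against 27.3, 21.0 and 20.3 FPKM in mutant mice. Sulf1 stood at 1.25, 1.49 and 2.05 FPKM against 1.21, 1.12 and 1.33 FPKM (log2 fold change -0.37, SE 0.19, edgeR adjusted p = 1). Both overlapped between genotypes, and wild-type replicate 3 had the highest Sulf1 value.

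**Figure D3:**
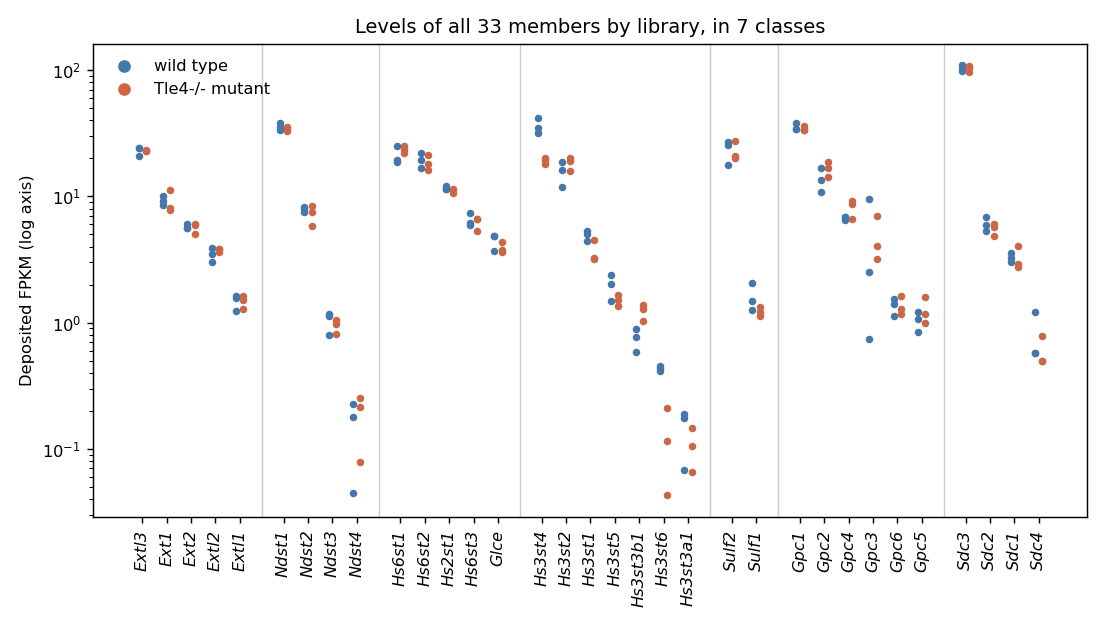
Deposited FPKM (log axis) of the 33 genes, grouped in 7 classes, with 1 point per library. Sdc3 is the most abundant at 97.1 to 109 FPKM, 6 genes have a mean under 1 FPKM, and most genes overlap between genotypes.

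Sdc3, the syndecan of neurons and their axons, was the most abundant of the 33 genes. It stood at 109, 102 and 98.5 FPKM in wild type against 97.1, 107 and 105 FPKM in mutant mice (log2 fold change 0.01, SE 0.09). Sdc2, which occurs in dendritic spines, followed at 6.04 and 5.54 FPKM in the means, Sdc1 at 3.27 and 3.25 FPKM and Sdc4 at 0.789 and 0.593 FPKM. Of the 4 syndecans 0 had an unadjusted p under 0.05. Sdc3 exons overlap those of Gm12970 and Gm26716 on the opposite strand.

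Gpc1 was the most abundant glypican, at 38.2, 34.1 and 34 FPKM in wild type against 33.4, 33.3 and 36.0 FPKM in mutant mice (log2 fold change -0.04, SE 0.10). Gpc2, a glypican of growing neurons, stood at 16.7, 13.6 and 10.8 FPKM in wild type against 16.9, 14.2 and 18.7 FPKM in mutant mice (log2 fold change 0.29, SE 0.17, edgeR adjusted p = 1). Wild-type replicate 3 was the lowest library for Gpc2, as it was for Hs3st2. Exons of Gpc2 overlap those of Gm43720 on the same strand, which had 21, 37 and 110 counts in wild type against 0 in each mutant. Gm43720 did not pass the threshold (log2 fold change -8.85, SE 1.58, edgeR adjusted p = 0.544), and Gpc2 had 2197 to 3966 counts. Gpc4, a glypican that promotes synapse formation when secreted by astrocytes, stood at 6.84, 6.87 and 6.48 FPKM in wild type against 6.67, 9.16 and 8.76 FPKM in mutant mice (log2 fold change 0.30, SE 0.16, edgeR adjusted p = 1). Gpc5 and Gpc6, neighbours on chromosome 14 with 0.40 Mb between them, had means from 1.04 to 1.36 FPKM. Of the 6 glypicans 5 lay above 0 and 1 below it, where 51.3% of all genes tested lay below 0. Their median log2 fold change was 0.23, and the 5 include Gpc6 at 0.02 (SE 0.18). Of the 6, 0 had an unadjusted p under 0.05.

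Gpc3, the growth-regulating glypican, stood at 0.740, 9.60 and 2.51 FPKM in wild type, against 3.18, 6.98 and 4.07 FPKM in mutant mice (log2 fold change 0.18, SE 0.92). The 10 markers of meninges and fibroblasts summed to 15.4, 525 and 186 CPM in wild type, against 203, 423 and 246 CPM in mutant mice. The 6 libraries thus stood in the same order for Gpc3 and for these markers, lowest in wild-type replicate 1 and highest in wild-type replicate 2. Of the 10 markers, Aldh1a2 was at 0 in at least 1 library. Their part in the Gpc3 values was not tested.

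**Figure D4:**
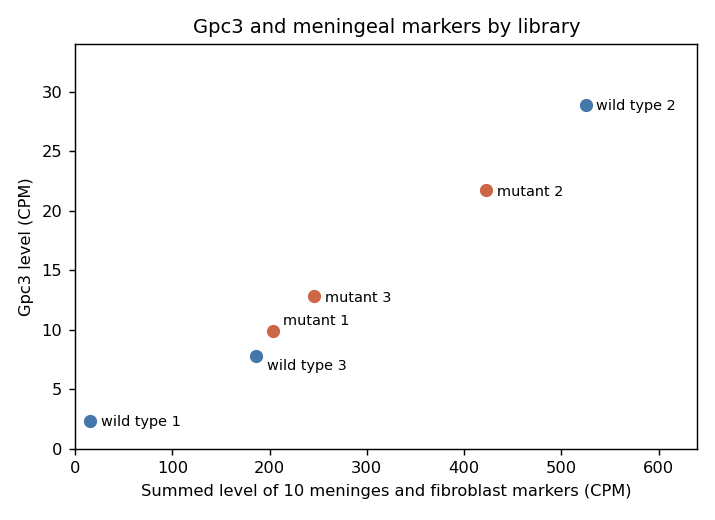
The level of Gpc3 (CPM) is plotted against the summed level (CPM) of 10 meninges and fibroblast markers, 1 point per library, with both axes linear and starting at 0. Gpc3 goes from 2.34 CPM at a marker sum of 15.4 CPM in wild-type replicate 1 to 28.9 CPM at 525 CPM in wild-type replicate 2.

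Hs6st2, Gpc4 and Gpc3 lie beside each other on the X chromosome, with 0.37 and 0.11 Mb between them. Counts of Xist, which is transcribed from the inactive X, were 35, 11 and 37 in wild type against 72840, 66194 and 79080 in mutant mice, and the Y-linked Ddx3y had 1463, 1891 and 2 counts and then 1, 0 and 2. Wild-type replicate 3 was low for both. Sex and genotype cannot be told apart in these libraries, for these 3 genes or for the autosomal ones. Ttr, a choroid plexus transcript, was counted 1789 times in mutant replicate 3 and 1 to 5 times in each other library.

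**Figure D5:**
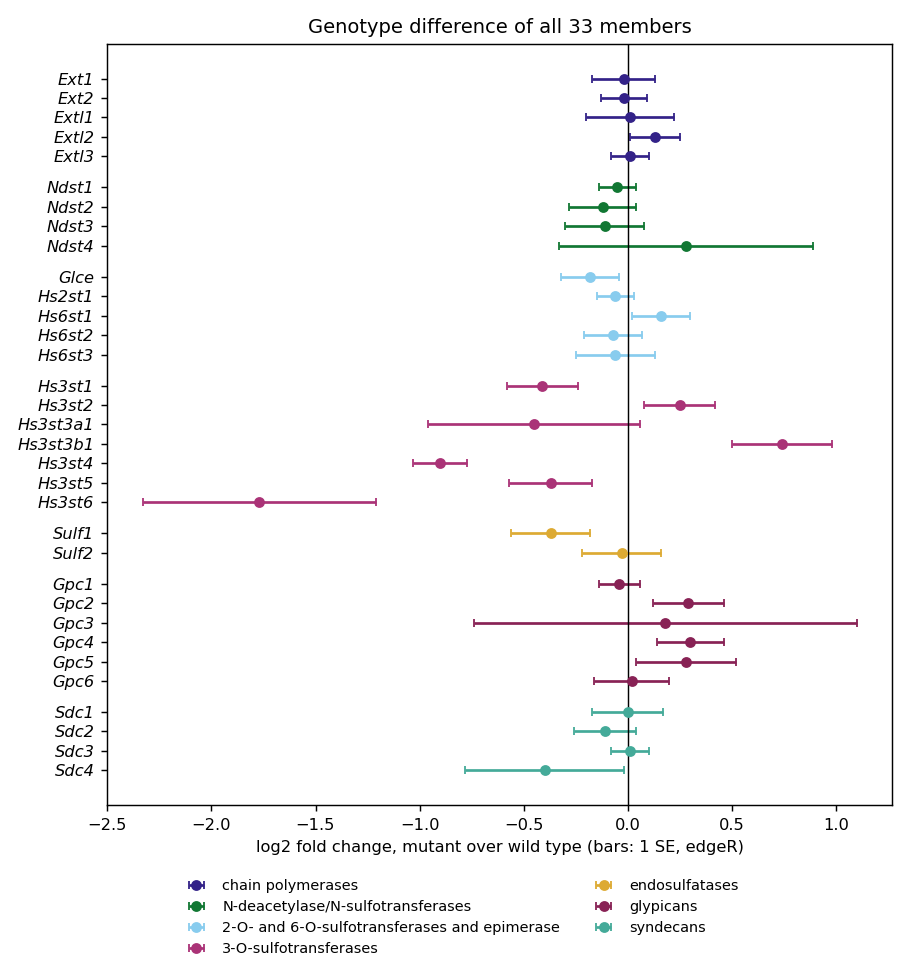
Points give the log2 fold change of the mutant over the wild type for the 33 genes, and bars 1 SE, from edgeR. Hs3st4 at -0.90, Hs3st6 at -1.77 and Hs3st3b1 at 0.74 lie farthest from 0, and Hs3st6, Gpc3 and Ndst4 have wide bars.

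Genes of the pathway outside these classes were counted from 5 further lists. Of 7 genes that build the linkage to the core protein or phosphorylate it, 0 passed the threshold in either direction and the median log2 fold change was -0.01. Xylt2, a xylosyltransferase that starts the chain on its protein, had the smallest p there (log2 fold change -0.12, SE 0.13). Of 10 tested genes that supply sulfate donor and sugar nucleotides 0 passed, and Papss1, which makes the sulfate donor, stood at 25.7, 25.3 and 25.4 FPKM in wild type against 29.5, 26.8 and 25.6 FPKM in mutant mice. Of 11 other heparan sulfate proteoglycan cores 0 passed, and Spock3, a testican, came first by p (log2 fold change -0.39, SE 0.24). Of 9 tested genes of chain cleavage and breakdown 0 passed, and the lysosomal sulfamidase gene Sgsh came first (log2 fold change -0.61, SE 0.28, edgeR adjusted p = 1). Of 10 neuronal receptors that bind heparan sulfate or glypicans 0 passed, with Ptprf, a receptor phosphatase, first (log2 fold change 0.12, SE 0.10).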

How the data were processed

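Per the file headers, the authors deposited whole-number counts per gene and library, FPKM per gene and library, mean FPKM per genotype, and a p-value and adjusted p-value of their own comparison. HISAT2 2.0.4, StringTie and edgeR, with GRCm38.p4 and mm10, are listed in the submitters' processing notes. No source used here gives the counting program, annotation release or strand setting.

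Counts went into edgeR 4.0.16 (R 4.3.3) with filterByExpr (16274 genes kept), TMM factors, a robust quasi-likelihood fit, a 2-sided test and Benjamini-Hochberg adjustment over all genes tested, at a threshold of 0.05. The SE of a log2 fold change was taken as its size divided by the root of the F statistic. The steps were tested on simulated data. FPKM served for levels between genes, and sums and shares of FPKM have no test. Alternatives were DESeq2 1.42.0 size factors and Wald test, limma 3.58.1 (voom, and log2(FPKM + 1) or log2(FPKM + 0.1)), other filters, a replicate block, each library left out, and no X, Y or mitochondrial genes.

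Promoter windows are from RefSeq (GRCm38.p6) for 24 of the 33 genes, and coding sequences from GENCODE M21. Any promoter window of these genes on chromosome 18, where Ndst1 lies, was left out. Coordinates are those of the table, where 25 gene symbols that a spreadsheet had turned into dates were restored from their gene IDs. The members and lists were chosen with earlier results of these data known. Values in every library are given for all Hs3st genes, members with an unadjusted p under 0.05 or genotypes that do not overlap, and the most abundant member of each class. Pathway genes named are the first by p of each list, and any other gene given with values was chosen after they were seen. The test result of the striatal marker list is not reported here.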

Additional observations from a re-analysis of the deposited data

How the results depend on the processing

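The number of genes past the threshold, 18 by edgeR, was 58 by the DESeq2 Wald test, 9 with a replicate block and 10 without X, Y and mitochondrial genes. Leaving out 1 library gave 8 to 19 (8 without mutant replicate 3). The number of heparan sulfate genes past it was 1 (Hs3st4) in place of 0 with DESeq2 size factors, the DESeq2 Wald test, limma on log2(FPKM + 1), limma on log2(FPKM + 0.1) and no filter beyond 1 count, and 0 to 1 when a library was left out. In those 5 settings the log2 fold change of Hs3st4 was -0.91, -0.91, -0.87, -0.90 and -0.90, and without a library it ranged from -1.0 to -0.77. It kept its direction in all 15 alternatives, with adjusted p from 1e-06 (DESeq2 Wald) to 0.261 (edgeR without mutant replicate 3). The cause of these shifts was not tested. Same-numbered libraries correlated at -0.06, 0.10 and -0.02 in their deviations from the genotype means. These values show no pairing by number, but 3 libraries per genotype are too few to settle whether there was one. With a replicate block Hs3st4 had a log2 fold change of -0.89 and an edgeR adjusted p of 0.140, and it did not pass without the block. With the block Hs3st1 no longer had an unadjusted p under 0.05. The median log2 fold change of the 33 genes stayed between -0.07 and 0.00, and the mean difference in the share of Hs3st4 between -18.2 and -15.4 percentage points.

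Among 12 other named members, 162 of 176 values kept their direction and their side of the threshold. None of the 12 was near the threshold in any fit, the lowest adjusted p being 0.415 (Hs3st6, limma on log2(FPKM + 1)). This count thus tells of direction only. The 14 that changed direction belonged to genes near 0. Extl3 was at -0.00 and Sdc3 at -0.01 in both limma fits on FPKM. When 1 library was left out, Extl3 ranged from -0.04 to 0.04, Gpc1 from -0.08 to 0.04, Sdc3 from -0.02 to 0.07 and Sulf2 from -0.20 to 0.09. Depth limits Hs3st6, Hs3st3a1, Ndst4 and Sdc4, which held 82 counts or fewer per library. Hs3st6 gave no value with a mean of at least 1 CPM, without X, Y and mitochondrial genes or without wild-type replicate 1, since it then fell under the filter.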

Other observations

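Chondroitin sulfate, the other main sulfated chain of the brain, gave 0 genes past the edgeR threshold in either direction among 15 tested synthesis genes and 9 core proteins. Of the synthesis genes 13 had log2 fold changes below 0 (median -0.08), against 51.3% of all genes tested. The 1 of 15 with an unadjusted edgeR p under 0.05 was Chst15, a sulfotransferase of the chondroitin chain. Chst15 stood at 13.1, 10.7 and 14.1 FPKM in the wild types and 9.37, 9.61 and 11.2 FPKM in the mutants (log2 fold change -0.32, SE 0.14, edgeR adjusted p = 1). Of the core proteins 2 had log2 fold changes below 0 (median 0.15). Ptprz1 and Ncan were the 2 of 9 cores with an unadjusted edgeR p under 0.05, against 3.45% of all genes. Over all pathway lists together, the chondroitin lists included, 3 of 71 tested genes (4.23%) were under it, these 2 and Chst15. Each of the further heparan sulfate lists had 0 such genes. Ptprz1, a receptor phosphatase of progenitors, stood at 27.7, 34 and 26.5 FPKM in the wild types and 36.3, 38.8 and 34.6 FPKM in the mutants (log2 fold change 0.33, SE 0.10, edgeR adjusted p = 1). Neurocan, encoded by Ncan, stood at 87.8, 89.5 and 84.9 FPKM in the wild types and 100, 93.0 and 101 FPKM in the mutants (log2 fold change 0.18, SE 0.08, edgeR adjusted p = 1). For both genes every mutant library was above every wild-type library in CPM, as for 4.18% of all genes. Radial glia markers, which mark cells that also express Ptprz1, summed to 622 to 851 CPM in the wild types and 759 to 949 CPM in the mutants, which overlap. Oligodendrocyte lineage markers summed to 509 to 567 CPM in the wild types and 568 to 645 CPM in the mutants. These do not overlap, but the nearest libraries, at 567 and 568 CPM, were almost level. The largest part of that sum was the proteoglycan gene Cspg5, at 321, 281 and 260 CPM in the wild types and 329, 301 and 283 CPM in the mutants, which overlap. Astrocyte markers summed to 287 to 465 CPM in the wild types and 373 to 395 CPM in the mutants. The part of these cell types in the Ptprz1 and Ncan values was not tested.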
